A study of Canis lupus familiaris with 6 samples.

Results

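Cones of the dog retina were compared between tissue lying over a graft and graft-free tissue of the same retina. Of 82153 barcodes with at least 300 detected genes in 6 single-cell libraries, 3616 were taken as cones, out of 84417 deposited. A barcode counted as a cone when PDE6H, GNAT2, PDE6C, GNGT2 and ARR3 together made up at least 0.3% of its UMIs (unique molecular identifiers, each standing for 1 captured RNA molecule), with at least 3 UMIs and at least 2 of these genes detected. The Müller glia genes RLBP1, GLUL and SLC1A3 had to stay under 0.3% and the bipolar cell genes TRPM1, PCP2, GNG13 and CABP5 under 0.2%. There were 1057, 511 and 205 cones over the graft in the experiments LG5, RC726 and RC724, and 1073, 427 and 343 in control. These 5 cone genes chose the cells, so their own values are given as a description with no test.

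Each of the 3 experiments gave 1 punch of neural retina, 5 mm wide, from above a subretinal graft of human retinal organoids, and 1 punch of the same width from a part of that retina without graft, both at day 3 after grafting. The organoids came from WA09, a long-established line of human embryonic stem cells, here with a tdTomato reporter for CRX. All dogs, control punches included, were immunosuppressed and had normal retinas, so a control punch is not untreated tissue. Punches were digested with 0.25% trypsin for 10 min before single-cell capture and sequencing from the 3' end of the RNA. The sources used here do not say whether the experiments used different dogs. With the experiment as a block or pair, the p-values below measure how the difference within a pair varied between these experiments. To estimate that spread, edgeR also draws on the other genes. The comparison asks how host cones above a fresh graft differ from cones of the same eye away from it.

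Cones are the photoreceptors of daylight and colour vision. Light activates a cone opsin, which acts through the transducin subunit GNAT2 on the phosphodiesterase PDE6C, and the fall in cyclic GMP closes the channel made by CNGA3 and CNGB3. Kinases such as GRK7 and the arrestin ARR3 then end the response, and guanylate cyclases with their activators restore cyclic GMP. Dog cones carry either OPN1LW, the opsin for long and medium wavelengths, or OPN1SW, the opsin for short wavelengths, and each cone signals to bipolar cells through a ribbon synapse.

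The label was checked with 11 cone markers that the rule did not use. Together they made up 3086 to 5116 CPM (the usual depth-scaled count: the UMIs of a gene in the summed cones of a library, scaled to the same total in each library) over the graft and 3719 to 5012 CPM in control. In all other barcodes they made up 391 to 618 CPM over the graft and 491 to 629 CPM in control. The LG5 libraries stood apart from the rest. Their UMIs were counted with the software Cell Ranger 6.0.2 and those of the others with 7.0.0 or 7.1.0, so version and experiment cannot be told apart. Across genes, the log CPM of LG5 cones correlated with those of the other experiments at 0.672 to 0.740, against 0.935 to 0.975 among the RC726 and RC724 libraries. Rod genes made up as large a share of the cones' UMIs as of the whole punch in LG5, at 101% of it over the graft and 102% in control. In RC726 and RC724 it was 21.1% and 17.5% of it over the graft and 16.3% and 20.1% in control. Summed microglia markers in cones reached 204, 2.79 and 3.46 CPM over the graft and 31.2, 1.87 and 5.67 CPM in control, with 10, 5 and 3 of the 12 markers detected over the graft and 10, 3 and 5 in control. T and NK cell markers stayed at or under 3.09 CPM and retinal pigment epithelium markers at or under 3.12 CPM in cones of every library. Müller glia markers in cones summed to 4320, 558 and 628 CPM over the graft and 2583, 261 and 1373 CPM in control, so in LG5 over the graft they lay above the cone markers. Ganglion cell markers in cones were higher over the graft in each experiment, at 151, 10.7 and 21.1 CPM over the graft and 103, 2.67 and 5.96 CPM in control, a list that includes THY1. Cones held a median of 1409, 5723 and 14177 UMIs over the graft and 2073, 5763 and 10818 UMIs in control. In each LG5 library, summed rod markers in cones exceeded the cone markers. The LG5 punch above the graft had 6410 CPM of rod markers against 3086 CPM of cone markers. Its control punch had 14570 against 3719 CPM. Rod markers in the other LG5 barcodes stood lower than in cones, at 5539 and 13189 CPM. In RC726 and RC724 the rod markers in cones lay below the cone markers. Results are therefore given with and without LG5. Rod, Müller glia and microglia RNA in LG5 cones, and ganglion cell RNA, moved with some results below, and their part in them was not tested. Between libraries, 17 to 102 barcode sequences were shared, and at most 2 of those were cones in both libraries.

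The rule genes themselves took a smaller share of a cone's UMIs over the graft. The median share was 0.870%, 1.49% and 0.806% over the graft and 2.20%, 2.02% and 1.75% in control, so every punch over the graft lay below every control punch. ARR3, which arrests activated cone opsin, stood at 844, 2999 and 1264 CPM over the graft and at 2694, 4552 and 4034 CPM in control. PDE6H, the inhibitory subunit of the cone phosphodiesterase, had 7561, 9848 and 4624 CPM over the graft and 11552, 12646 and 8974 CPM in control. The 3 libraries over the graft lay lower than their own controls for both genes, although the groups overlapped. GNAT2 had 934, 1408 and 1273 CPM over the graft and 1713, 1730 and 1835 CPM in control, and GNGT2, a further cone transducin subunit, had 913, 1010 and 817 CPM over the graft and 1211, 1078 and 1103 CPM in control. For GNAT2 and GNGT2 the groups did not overlap. PDE6C, the catalytic subunit, had 469, 793 and 959 CPM over the graft and 488, 734 and 844 CPM in control, with no shared direction. When cones were chosen instead by OPN1LW, OPN1SW, CNGA3, CNGB3 and GRK7, the log2 changes were -1.36 for ARR3, -0.76 for PDE6H, -0.71 for GNAT2, -0.50 for GNGT2 and -0.08 for PDE6C, close to -1.36, -0.68, -0.60, -0.35 and 0.04 with the rule. That choice gave 199, 338 and 236 cones over the graft and 555, 276 and 283 in control. Of these, 92.0%, 94.1% and 81.4% over the graft and 99.3%, 97.5% and 96.8% in control also met the rule, so the choices are not independent.

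Every experiment had more barcodes near the threshold in its punch above the graft than in its control punch, most of all LG5. The punches above the graft also held more barcodes with at least 300 genes, at 23898, 11578 and 9729 against 18049, 10124 and 8775 in control. The counts that follow are not scaled to these totals. There were 108 barcodes between 0.2% and 0.3%, just outside the rule, in LG5 over the graft, 24 in RC726 and 30 in RC724, against 13, 18 and 10 in control. Just inside, between 0.3% and 0.4%, there were 116, 28 and 21 over the graft and 22, 15 and 8 in control. CNGB3, which the rule did not use, stood at 53.1, 164 and 462 CPM just outside and 61.2, 525 and 782 CPM just inside over the graft, and at 50.5, 562 and 268 CPM just outside and 40.0, 1134 and 194 CPM just inside in control.

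**Figure D1:**
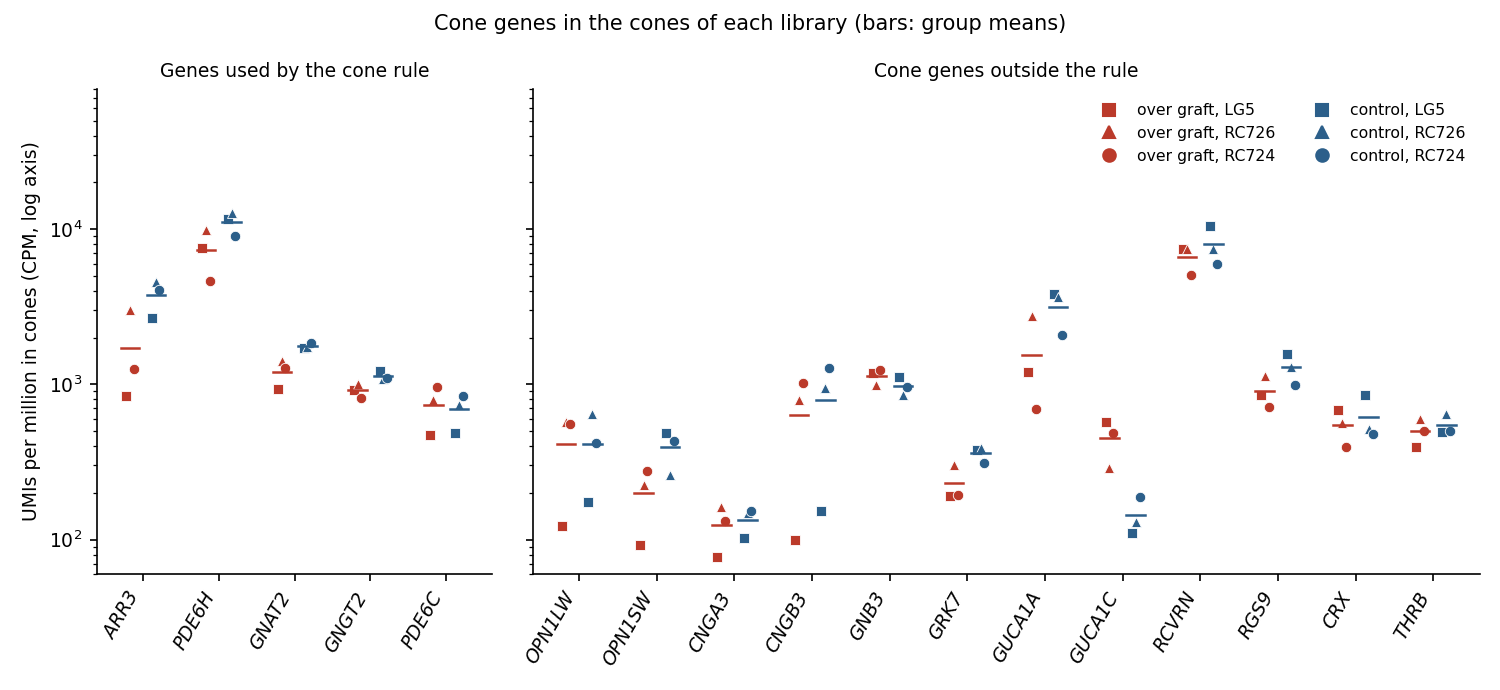
Levels of cone genes in the summed cones of each library, in CPM on a log axis. Red marks punches over the graft, blue marks control punches, symbols mark the experiments and bars are group means. ARR3 and GUCA1A lie lower over the graft than in the control of the same experiment, GUCA1C lies higher in every library over the graft, and CNGB3 in LG5 lies far below its level in RC726 and RC724 in both punches.

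Of the 16 phototransduction genes outside the rule, 1 rose, none fell and 14 had a negative log2 change, with a median of -0.43. Over all 12232 genes tested the median was 0.01, and 1.26% rose and 0.368% fell. Rose and fell here mean that a gene was called, at an adjusted p under 0.05. The gene that rose was GUCA1C, which encodes a guanylate cyclase activator of photoreceptors. It had 573, 288 and 486 CPM over the graft and 111, 130 and 189 CPM in control, and the groups did not overlap. Its log2 change was 1.58 ± 0.21 (SE, edgeR adjusted p = 0.00974) and 1.23 without LG5, where it was also called (edgeR adjusted p = 0.0248). Its relative GUCA1A went the other way, with 1202, 2756 and 694 CPM over the graft and 3797, 3632 and 2078 CPM in control, which gave a log2 change of -1.25 ± 0.26 that did not pass the test (edgeR adjusted p = 0.0518). Each experiment showed the lower value over the graft, and the groups overlapped.

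Both cone opsins missed the threshold. OPN1LW had 122, 570 and 552 CPM over the graft and 174, 643 and 416 CPM in control, with no shared direction and a log2 change of -0.11 ± 0.19 (edgeR adjusted p = 0.864). OPN1SW had 91.7, 225 and 278 CPM over the graft and 486, 261 and 433 CPM in control, lower over the graft in each experiment, with a log2 change of -1.07 ± 0.36 (edgeR adjusted p = 0.215). GRK7, the cone opsin kinase, had 192, 303 and 194 CPM over the graft and 379, 387 and 310 CPM in control. Its groups did not overlap, and its log2 change of -0.70 ± 0.16 had an edgeR adjusted p of 0.0697. The channel subunits gave log2 changes of -0.18 ± 0.15 for CNGA3 and -0.43 ± 0.15 for CNGB3, and the transducin subunit GNB3 gave 0.18 ± 0.15, none of them called (edgeR adjusted p = 0.653, 0.249 and 0.667). The transcription factors of cone identity had small changes. CRX, THRB and RXRG had log2 changes of -0.19 ± 0.15, -0.19 ± 0.14 and -0.22 ± 0.15, none of them called (edgeR adjusted p = 0.655, 0.639 and 0.605).

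Across all genes, 199 of 12232 were called in cones at an adjusted p under 0.05, which is 1.63% of them, in an edgeR quasi-likelihood test with the experiment as a block. Of these, 154 were higher over the graft (1.26%) and 45 were lower (0.368%), and 1718 genes had an unadjusted p under 0.05. The genes tested include those that chose the cells. Of them ARR3 alone is among the calls, as a fall, and that call is not read as a result. Without LG5, 49 of 12636 genes were called (0.388%), 43 higher (0.34%) and 6 lower (0.0475%), and 44 of them were among the 199. Of the 199, 197 could be tested without LG5, and all 197 kept the sign of their change. The calls used RC726 and RC724 too, and 197 of the 199 went the same way in the 3 experiments. The kept signs thus follow largely from the selection. Without RC726 the number was 337 and without RC724 it was 514. Without the block, edgeR called none, with 187 genes at an unadjusted p under 0.05. Of all genes tested, 4566 went the same way in the 3 experiments (37.3%) and 553 had values that did not overlap between the groups (4.52%). Genes named below for the size of their change were called, went the same way in the 3 experiments and reached a mean of 20 CPM in the higher group, which left 135 rises and 40 falls. Genes of the lists are also named where they were called below that level.

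**Figure D2:**
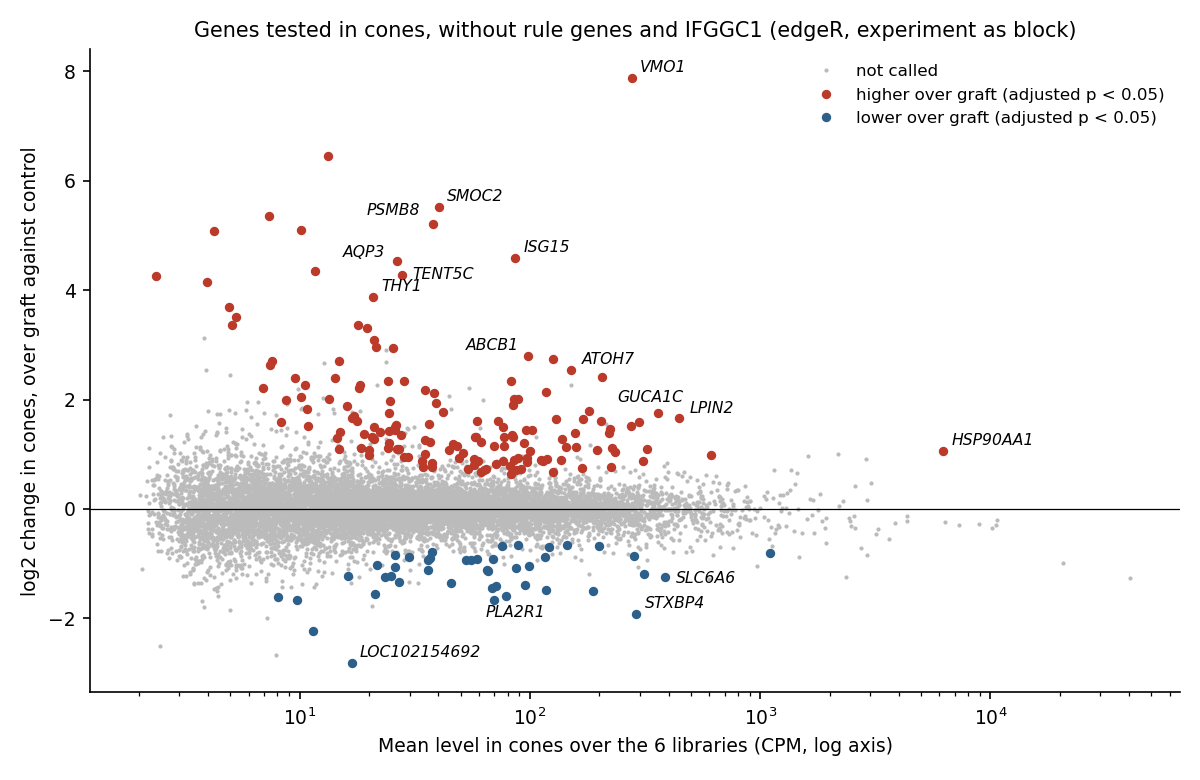
Log2 change in cones over the graft against control, plotted against the mean level over the 6 libraries on a log axis, for the genes tested by edgeR apart from the genes that chose the cells and IFGGC1. Red points passed an adjusted p of 0.05 upwards and blue points downwards. Rises reach a log2 change of 7.87 for VMO1, while the largest fall is -2.82 for LOC102154692.

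The largest rise with UMIs in every library was that of VMO1. This gene, named after a protein of the hen egg's outer membrane, had 1565, 36.5 and 52.9 CPM over the graft and 4.12, 1.07 and 0.284 CPM in control. The groups did not overlap, and the log2 change was 7.87 ± 0.42 (edgeR adjusted p = 2.0e-04), or 5.90 without LG5. VMO1 was also high outside cones, where all other barcodes held 1282, 221 and 274 CPM over the graft and 11.0, 19.2 and 3.78 CPM in control. Free RNA, shed by lysed cells and captured with every barcode, was estimated from the level of rod genes in cones relative to the whole punch. After it was subtracted in RC726 and RC724, VMO1 was left with 0 and 8.19 CPM in cones over the graft and with 0 in both controls.

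SMOC2, which encodes a secreted calcium-binding matrix protein, had 127, 31.2 and 78.9 CPM over the graft and 1.03, 2.40 and 0.851 CPM in control. The lowest library over the graft was above the highest control. The log2 change was 5.52 ± 0.42 (edgeR adjusted p = 9.5e-04), 4.91 without LG5 and 5.40 after the subtraction of free RNA. Other barcodes held 10.2, 7.35 and 13.0 CPM over the graft, so SMOC2 stood higher in cones in every punch over the graft.

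AQP3, a channel for water and glycerol, had 113, 6.09 and 33.6 CPM over the graft and 3.43, 0.800 and 1.42 CPM in control, with a log2 change of 4.53 ± 0.32 (edgeR adjusted p = 7.2e-04). LTBP1, which holds latent TGF-beta in the matrix, had 20.6, 12.7 and 33.6 CPM over the graft and 1.03, 0 and 2.27 CPM in control, and the log2 change was 4.34 ± 0.43 (edgeR adjusted p = 0.00284). TENT5C, a poly(A) polymerase, had 105, 19.8 and 35.6 CPM over the graft and 4.46, 1.87 and 1.13 CPM in control, which gave a log2 change of 4.28 ± 0.28 (edgeR adjusted p = 5.4e-04). For these 3 genes the groups did not overlap, and each was also called without LG5, with log2 changes of 3.99, 4.38 and 4.09. THY1, a surface glycoprotein used as a marker of ganglion cells, had 103, 4.57 and 8.995 CPM over the graft and 7.20, 0.267 and 0.284 CPM in control, with overlapping groups. Its log2 change was 3.88 ± 0.30 (edgeR adjusted p = 9.9e-04), and it was not called without LG5, at 4.40. Other barcodes held 136, 41.0 and 59.2 CPM of THY1 over the graft and 17.3, 6.91 and 8.21 CPM in control.

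The other named rises of this size rested more on LG5. PSMB8, a subunit of the immunoproteasome, had 212, 6.85 and 5.54 CPM over the graft and 1.72, 0.533 and 1.70 CPM in control. The log2 change was 5.21 ± 0.68 (edgeR adjusted p = 0.00882) with LG5 and 2.45 without it, where it was not called. TAP1, a subunit of the peptide transporter that feeds MHC class I, is the neighbour of PSMB8 in the RefSeq annotation. It had 89.6, 6.35 and 5.54 CPM over the graft and 1.72, 1.60 and 2.55 CPM in control, with a log2 change of 3.36 ± 0.68 (edgeR adjusted p = 0.0491) with LG5 and 1.496 without it. IFGGC1, by its name an interferon-inducible GTPase, had 132, 13 and 12 UMIs in cones over the graft and 0 in each control. Set against a floor of 3 UMIs per control library, it was at least 66.1-fold higher over the graft in LG5, 4.13-fold in RC726 and 4.88-fold in RC724 (edgeR adjusted p = 0.00345). IFGGC1 passed the filter on low counts only through the libraries over the graft, where it is high. The same limit applies to SMOC2, LTBP1, PSMB8 and TAP1, with at most 2.55 CPM in any control. VMO1, AQP3, TENT5C and THY1 were low in the controls of RC726 and RC724 and also needed libraries over the graft to pass. The filter thus favours rises among such genes. LOC100684769 and LOC477699, protein-coding genes without a name in RefSeq, had log2 changes of 6.45 ± 0.73 and 3.31 ± 0.35 (edgeR adjusted p = 0.00555 and 0.00378), and neither was called without LG5. The counting of IFGGC1 may share reads with related GTPase genes, since IFGGB2 lies next to it in RefSeq.

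**Figure D3:**
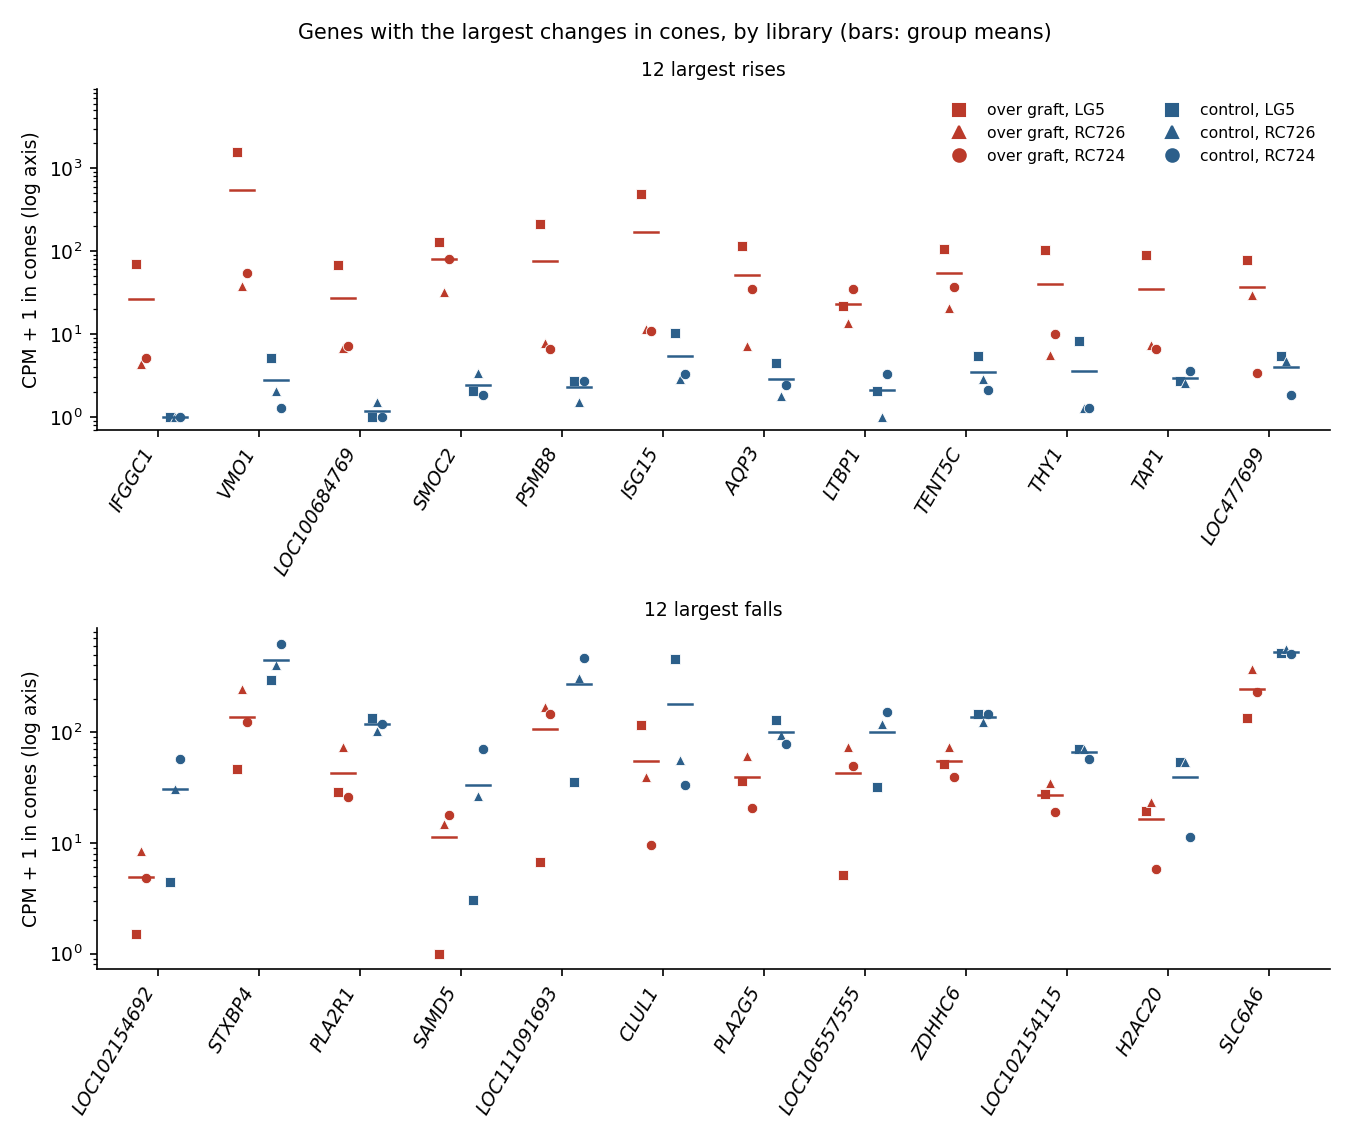
Levels in cones of the 12 genes with the largest rises and the 12 with the largest falls, as CPM + 1 on a log axis, by library. Red marks punches over the graft and blue marks control punches, symbols mark the experiments and bars are group means. LG5 over the graft is the highest point for every rise but LTBP1, and THY1 and LOC477699 are the rises whose groups overlap.

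Some rises stood higher in cones than in all other barcodes of the punch. Among the genes open to naming, 40 were called both with and without LG5, of which 36 rose and 4 fell. Of the 36, 17 had a higher CPM in cones than in other barcodes in each of the 3 punches over the graft, where these genes are high by their selection, as had 60 of all 135 rises and 38.6% of all genes tested. Read in the 3 control punches instead, 11 of the 36 and 40 of the 135 rises stood higher in cones, against 35.6% of all genes tested. The 17 genes were SMOC2, ABCB1, ATOH7, TPH1, SERGEF, NPHS1, SLC22A23, TMEFF2, GEM, GAB2, MYOM1, GUCA1C, BTBD11, FRMD6, UBE2Q2, LUZP2 and ACLY, a selection made after their values were seen. Of them, SMOC2, NPHS1, TMEFF2, GAB2, FRMD6 and LUZP2 were not above other barcodes in all 3 controls.

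ABCB1, the efflux transporter of many drugs, had 69.5, 88.8 and 361 CPM over the graft and 4.12, 24.5 and 40.3 CPM in control, and other barcodes over the graft held 3.995, 8.87 and 13.0 CPM. The groups did not overlap, and the log2 change was 2.80 ± 0.30 (edgeR adjusted p = 0.00431) with LG5 and 2.55 without it. ATOH7, a transcription factor that mouse retinal ganglion cells need to form, had 52.0, 168 and 577 CPM over the graft and 12.7, 46.6 and 48.5 CPM in control. Its groups did not overlap, and other barcodes over the graft held 3.25, 13.1 and 27.7 CPM. In RefSeq ATOH7 overlaps MYPN, GUCA1C overlaps MORC1, VMO1 overlaps GLTPD2 and TM4SF5, and STXBP4 overlaps COX11, so some of their UMIs may belong to a partner. ERAP1 overlaps CAST, GRK7 overlaps RNF7 and PDE6H overlaps ARHGDIB, with the same limit. SERGEF, THY1, SLC6A6, PLA2R1, SLC22A23, GAB2 and BTBD11 overlap loci without a gene name, again with that limit. So do MYOM1, TMEFF2, FRMD6, LUZP2, CLUL1, PRDX1, CNGA3, CNGB3 and THRB. The log2 change of ATOH7 was 2.53 ± 0.32 (edgeR adjusted p = 0.00764) with LG5 and 2.70 without it, and it was the 1 gene of 20 photoreceptor transcription factors tested that rose, while none fell. The median of that list was -0.18, and 1.26% of all genes tested rose.

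TPH1, which catalyses the rate-limiting step of serotonin synthesis, had 392, 182 and 481 CPM over the graft and 49.7, 56.8 and 75.7 CPM in control. All punches over the graft lay above all controls, and other barcodes over the graft held 14.7, 5.07 and 9.71 CPM. The log2 change was 2.41 ± 0.23 (edgeR adjusted p = 0.00221) with LG5 and 2.16 without it. SERGEF, a regulator of secretion, is next to TPH1 in the RefSeq annotation. It had 18.5, 102 and 301 CPM over the graft and 4.80, 24.0 and 45.1 CPM in control, and the log2 change was 2.35 ± 0.19 (edgeR adjusted p = 0.00114). Reads of 1 of these neighbours running into the other could not be told apart here.

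GEM, a small GTPase that restrains calcium channels, had 286, 162 and 389 CPM over the graft and 41.8, 64.8 and 138 CPM in control, which gave a log2 change of 1.79 ± 0.24 (edgeR adjusted p = 0.00974). MYOM1, which encodes a protein of the muscle sarcomere, had 245, 87.1 and 269 CPM over the graft and 46.7, 43.7 and 85.9 CPM in control, with a log2 change of 1.64 ± 0.22 (edgeR adjusted p = 0.00974), and its RefSeq neighbour LPIN2 also rose, by 1.67. ACLY, which makes cytosolic acetyl-CoA, had 352, 194 and 394 CPM over the graft and 147, 98.9 and 171 CPM in control, and the log2 change was 1.11 ± 0.13 (edgeR adjusted p = 0.00601). In GEM, MYOM1 and ACLY every punch over the graft was above every control. The nephrin gene NPHS1 rose by 2.21, SLC22A23 by 2.01, TMEFF2 by 1.97, the signalling adaptor GAB2 by 1.77, FRMD6 by 1.36, the ubiquitin-conjugating enzyme UBE2Q2 by 1.32 and LUZP2 by 1.28 on the log2 scale.

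**Figure D4:**
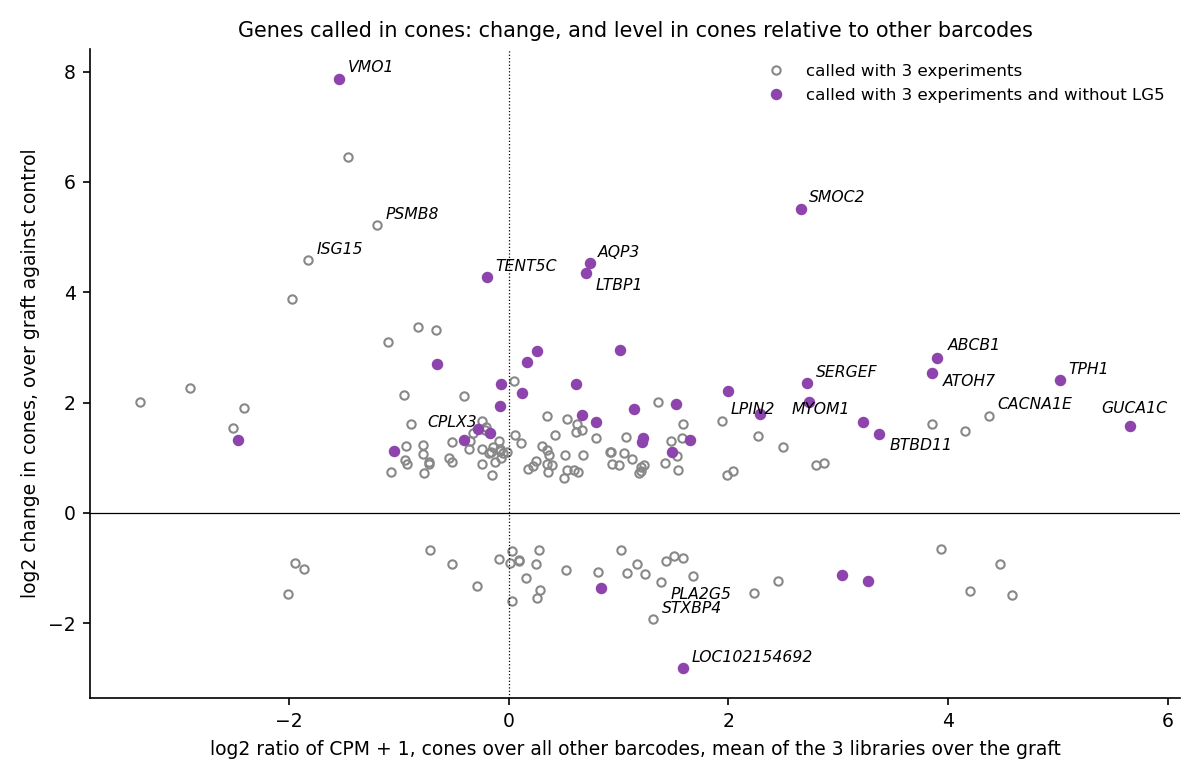
Log2 change in cones over the graft against control for the genes open to naming apart from IFGGC1, plotted against the log2 ratio of their CPM + 1 in cones over that in all other barcodes, averaged over the 3 punches over the graft. Filled points were also called without LG5. VMO1, ISG15 and PSMB8 lie left of 0, higher in other cells than in cones, and ABCB1, ATOH7, TPH1 and GUCA1C lie far to the right.

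Falls were fewer and smaller. STXBP4, a partner of syntaxin in vesicle traffic, had 45.3, 242 and 122 CPM over the graft and 297, 405 and 626 CPM in control. The groups did not overlap, and the log2 change was -1.93 ± 0.33 (edgeR adjusted p = 0.0284) with LG5 and -1.56 without it, where it was not called. SLC6A6, a transporter that brings taurine into photoreceptors, had 134, 367 and 231 CPM over the graft and 512, 566 and 505 CPM in control, which gave a log2 change of -1.25 ± 0.23 (edgeR adjusted p = 0.0381). It was the 1 gene of 20 ion channels and transporters tested that fell, while none rose, and 17 of the 20 had a negative change, with a median of -0.30. Of all 12232 genes tested, 0.368% fell and 5936 had a negative change. SLC6A6 was not called without LG5, at -0.90.

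A receptor and an enzyme of secreted phospholipase A fell together. PLA2R1, the receptor, had 27.8, 71.8 and 24.9 CPM over the graft and 132, 100 and 117 CPM in control, with a log2 change of -1.59 ± 0.32 (edgeR adjusted p = 0.0470). PLA2G5, the enzyme, had 35.5, 59.6 and 19.7 CPM over the graft and 129, 92.2 and 76.6 CPM in control, and the log2 change was -1.45 ± 0.25 (edgeR adjusted p = 0.0277). ZDHHC6, a palmitoyltransferase, had 51.0, 72.6 and 38.4 CPM over the graft and 144, 122 and 144 CPM in control, which gave a log2 change of -1.39 ± 0.21 (edgeR adjusted p = 0.0156). In none of these 3 genes did the groups overlap, and none was called without LG5, at -1.27, -1.20 and -1.31.

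NXNL1, which encodes the rod-derived cone viability factor and its longer thioredoxin-like form, was low in cones, at 2.06, 8.12 and 3.81 CPM over the graft and 13.4, 18.4 and 12.5 CPM in control. Its log2 change was -1.66 ± 0.32 (edgeR adjusted p = 0.0388), and other barcodes held 1.84, 10.4 and 3.34 CPM over the graft and 9.24, 33.8 and 10.1 CPM in control. CLUL1, a clusterin relative found in photoreceptors, SAMD5 and the histone gene H2AC20 fell by 1.47, 1.55 and 1.33 on the log2 scale with overlapping groups (edgeR adjusted p = 0.0381, 0.0470 and 0.0117). Counts of H2AC20 may share reads with the histone gene copies beside it.

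The named falls also called without LG5 were 4 genes known by a locus number alone. LOC102154692 had 0.515, 7.36 and 3.81 CPM over the graft and 3.43, 29.9 and 55.9 CPM in control, with a log2 change of -2.82 ± 0.36 (edgeR adjusted p = 0.00819), and -2.83 without LG5. LOC102154115 had 26.8, 33.5 and 18.0 CPM over the graft and 69.3, 69.6 and 55.9 CPM in control, with groups that did not overlap and a log2 change of -1.36 ± 0.16 (edgeR adjusted p = 0.00601), and -1.33 without LG5. LOC102154640 and LOC106560035, picked because they were the other falls called both ways, had log2 changes of -1.12 ± 0.16 and -1.23 ± 0.19 (edgeR adjusted p = 0.0117 and 0.0166). All 4 stood higher in cones than in other barcodes in each punch over the graft, as did 27 of the 40 falls and 38.6% of all genes tested. In the control punches, where falls are high by their selection, it was 30 of the 40. RefSeq lists LOC102154692, LOC102154115 and LOC102154640 as long noncoding. There LOC102154115 overlaps KIAA0100 and RSKR, LOC102154640 overlaps CTNND2 and LOC102154692 overlaps LOC102154794, so some of their UMIs may belong to a partner. LOC106560035 had no single RefSeq entry. LOC111091693 and LOC106557555, a further pair of long noncoding genes that lie beside each other in RefSeq, had log2 changes of -1.49 ± 0.24 and -1.41 ± 0.28 (edgeR adjusted p = 0.0221 and 0.0456), and neither was called without LG5. LOC111091693 overlaps LOC119865221, which also fell, so they may share reads.

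Interferon and MHC class I genes were higher over the graft, most of all in LG5. Type I interferons switch on antiviral genes through factors that include IRF9, and MHC class I shows peptides cut by the immunoproteasome and moved by TAP. Of the interferon genes in the list, 20 of 46 in the files passed the filter on low counts in cones. Of these, 6 rose, none fell and 19 had a positive change, with a median log2 change of 1.52, also with IFGGC1 at its bound. Over all 12232 genes tested, 1.26% rose and 6296 had a positive change. The filter can keep a gene near 0 in control through its libraries over the graft alone, as with IFGGC1. The list's count and median can therefore lean upwards. Without LG5 the median of the list was 0.85 and none of 23 tested was called. ISG15, a ubiquitin-like protein, had 483, 10.7 and 10.0 CPM over the graft and 9.26, 1.87 and 2.27 CPM in control. The groups did not overlap, and its log2 change was 4.58 ± 0.56 (edgeR adjusted p = 0.00669), or 2.28 without LG5. IRF9 had 150, 20.6 and 25.9 CPM over the graft and 16.1, 5.60 and 12.5 CPM in control, and the log2 change was 2.11 ± 0.34 (edgeR adjusted p = 0.0222) that was 1.39 without LG5 and then not called.

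IFI35 rose by 3.09, HERC6 by 1.61 and USP18, which takes ISG15 off proteins, by 1.55 on the log2 scale (edgeR adjusted p = 0.0388, 0.0472 and 0.0470), and none of them was called without LG5, at 1.28, 0.98 and 0.996. MX1, an antiviral GTPase, did not pass the filter on low counts, with 107, 6.09 and 1.73 CPM over the graft and 1.03, 0.800 and 0.851 CPM in control. IFI6 was the 1 tested member with a negative change, at 51.0, 3.55 and 6.92 CPM over the graft and 88.5, 5.60 and 24.4 CPM in control, and did not pass the test (edgeR adjusted p = 0.0544).

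Of 15 MHC class I and peptide loading genes tested, 4 rose, none fell and 14 had a positive change, with a median log2 change of 1.82. Among all 12232 genes tested 1.26% rose and 6296 had a positive change. The filter on low counts sets the same limit here as for the interferon list. The class I list genes that rose were PSMB8, TAP1, the peptide trimming enzyme ERAP1 at 1.66 ± 0.28 and the class I gene DLA-64 at 2.13 ± 0.36 (edgeR adjusted p = 0.0250 and 0.0252 for the last pair). DLA-64 had 467, 33.8 and 91.7 CPM over the graft and 62.4, 3.73 and 48.2 CPM in control, and related class I genes may share its reads. B2M, the light chain of class I, had 208, 37.8 and 36.0 CPM over the graft and 7.89, 12.3 and 22.4 CPM in control. Its groups did not overlap, but its log2 change of 2.20 ± 0.57 had an edgeR adjusted p of 0.111. Without LG5 none of the 15 was called and the median was 1.10, and after free RNA was subtracted in RC726 and RC724 the median of the 9 still tested was -0.09, against 0.40 for 10 interferon genes.

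The summed interferon list stood at 3081, 400 and 454 CPM in cones over the graft and 392, 202 and 309 CPM in control, while other barcodes of the same punches held 2690, 1248 and 1449 CPM over the graft and 1173, 705 and 939 CPM in control. Only in LG5 over the graft did cones hold more than the other barcodes. MHC class I genes summed to 2189, 464 and 466 CPM in cones over the graft and 536, 305 and 383 CPM in control. After each cone was thinned to 1000 UMIs, 81.9%, 28.0% and 35.4% of cones over the graft and 27.0%, 16.6% and 23.7% of cones in control had at least 1 UMI of the list. Each experiment was higher over the graft, the means were 48.4% ± 29.2 over the graft and 22.4% ± 5.35 in control (SD, n = 3 each), and p was 0.25, the smallest that 3 pairs allow, in a two-sided exact test that flips the signs of the pairs. Thinning left out 99, 78 and 5 cones over the graft and 80, 47 and 39 in control, and without it the shares were 86.3%, 66.3% and 95.1% over the graft and 49.2%, 58.5% and 76.1% in control. Rods thinned alike held 91.6%, 49.5% and 75.7% over the graft and 36.2%, 27.0% and 30.5% in control. The median depth before thinning was 1479, 7710 and 14331.5 UMIs in the cones over the graft and 2147, 7734 and 11552 in control, and 1603, 2509 and 2833 UMIs in rods over the graft and 1649.5, 1931 and 2078 in control. No cell type here is known to lack these genes, so the part of free RNA in the shares was not measured.

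**Figure D5:**
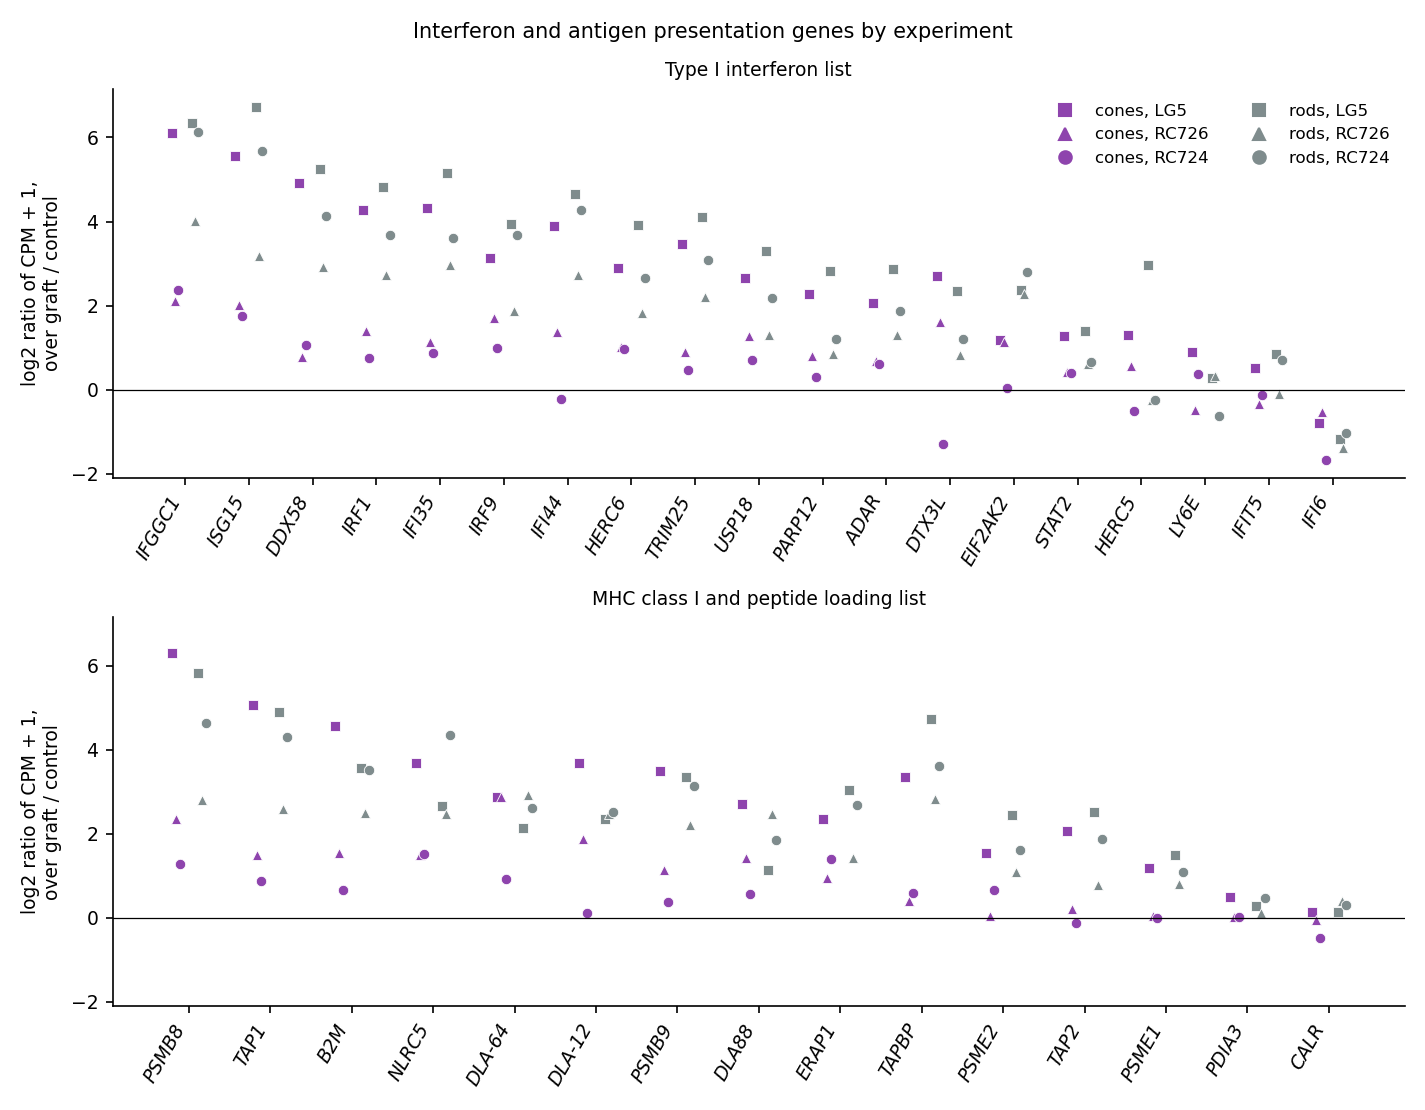
Log2 ratio of CPM + 1, over the graft against control, for 19 of the 20 tested interferon genes and the tested MHC class I and peptide loading genes, in cones (purple) and rods (grey) of each experiment. Squares are LG5, triangles RC726 and circles RC724. Ratios in cones of LG5 lie above those of RC726 and RC724 for most genes, and ISG15 and IFGGC1 are above 0 in all 3 experiments in both cell types.

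Calls among stress genes outside the interferon response were near the 1.63% over all genes. Of 17 heat shock genes tested, 1 rose, none fell and the median log2 change was 0.05. HSP90AA1, the stress-inducible cytosolic chaperone, was that gene, with 16353, 3744 and 6104 CPM over the graft and 6371, 2277 and 2660 CPM in control. It was higher over the graft in each experiment, although the groups overlapped, and its log2 change was 1.06 ± 0.20 (edgeR adjusted p = 0.0381), or 0.93 without LG5, where it was not called. Of 21 genes of oxidative stress and metal handling, 1 rose, the peroxide-reducing enzyme PRDX1 at 0.88 ± 0.17 (edgeR adjusted p = 0.0412), with a list median of 0.21. No member of 16 genes of endoplasmic reticulum stress or of 19 cell death genes was called, with medians of 0.03 and 0.10.

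Genes around STAT3, which carries signals of the gp130 cytokine receptors, gave 2 rises and no fall among 12 tested, with a median of 0.39. For comparison with the lists of this paragraph, 1.26% of all genes tested rose and 0.368% fell. The receptor subunit IL6ST had 194, 72.8 and 125 CPM over the graft and 82.3, 51.7 and 56.4 CPM in control, which gave a log2 change of 0.93 ± 0.16 (edgeR adjusted p = 0.0288). STAT3 had 132, 154 and 239 CPM over the graft and 50.4, 86.4 and 155 CPM in control, with a log2 change of 0.89 ± 0.16 (edgeR adjusted p = 0.0294). Both were higher over the graft in each experiment with overlapping groups, and neither was called without LG5, at 0.80 and 0.70. Of 18 genes of the NF-kappa-B and AP-1 response 1 rose, IER3 at 1.07 ± 0.18 (edgeR adjusted p = 0.0230). Of 24 genes of glycolysis and the cone viability factor, the hexokinase HK2 rose by 1.05 ± 0.16 (edgeR adjusted p = 0.0183) and NXNL1 fell. The median of that list was -0.03. Without LG5, PRDX1, IER3, HK2 and NXNL1 had log2 changes of 0.65, 0.85, 0.94 and -1.41 and were not called.

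Calls among structural and synaptic genes of cones were about as frequent as the 1.63% over all genes. Of 27 genes of the outer segment and cilium tested, none was called and 21 had a negative change, with a median of -0.25. Of 26 ribbon synapse genes, 1 rose, none fell, and the median was -0.22. The gene that rose was CPLX3, a complexin that guards release at ribbon synapses, with 122, 76.7 and 222 CPM over the graft and 52.1, 22.4 and 80.3 CPM in control. It was higher over the graft in each experiment with overlapping groups, and its log2 change was 1.45 ± 0.15 (edgeR adjusted p = 0.00345) with LG5 and 1.57 without it. None of 7 genes of the interphotoreceptor matrix, 32 of the respiratory chain, 47 of the cytosolic ribosome and 29 of the proteasome was called, with medians between -0.03 and 0.14. The 16 rod markers, read in cones, all had a negative change with a median of -0.64 and none was called, and their sum was 6410, 2403 and 1236 CPM over the graft and 14570, 2481 and 1684 CPM in control.

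Cones took 4.42%, 4.41% and 2.11% of barcodes over the graft and 5.94%, 4.22% and 3.91% in control. By the rule, LG5 and RC724 had the lower share over the graft, and RC726 the slightly higher one. The means were 3.65% ± 1.33 over the graft and 4.69% ± 1.10 in control (SD, n = 3 each), and the mean log2 ratio of -0.42 (SD 0.48) gave p = 0.5 in the two-sided exact sign-flip test. With cone genes at least 0.6% of UMIs the mean log2 ratio was -0.69, with RC726 at -0.0079 and exact p = 0.25, and with cones chosen by genes outside the rule it was -0.73, with LG5 at -1.88 and exact p = 0.5. The exact 95% binomial interval, which covers counting error only, ran from 1.83% to 2.41% in RC724 over the graft and from 3.51% to 4.34% in RC724 control. Since the rule asks for a minimum share of cone gene UMIs, fewer cones and less cone gene RNA per cone cannot be told apart in this count.

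Cones with more OPN1SW than OPN1LW UMIs, the S cones, were counted among cones with any opsin UMI, and those with more OPN1LW are called L/M cones. With 1 opsin UMI or more, they were 9.35%, 8.10% and 15.9% of 214, 321 and 189 such cones over the graft, and 21.1%, 9.75% and 15.6% of 478, 277 and 269 in control. The mean difference was -4.39 percentage points (SD 6.47, n = 3 pairs), with p = 0.5 in the two-sided exact sign-flip test, and without LG5 it was -0.69. With at least 3 opsin UMIs the S share in LG5 was 75% of 24 cones over the graft and 81.4% of 113 in control, and the mean difference was -2.41 percentage points, so the level of the share in LG5 depends on this minimum. Cones with UMIs of both opsins made up 20.6% of these cones in RC724 over the graft and 8.92% in RC724 control, against at most 1.05% in the other libraries. S cones also carried CCK, which encodes the peptide cholecystokinin and was picked after its values were seen. CCK had 1411, 1057 and 617 CPM in S cones over the graft and 1760, 1660 and 766 CPM in S cones of control, and at most 1.36 CPM in L/M cones of any library. The lower ARR3 level was present in both cone types, at 852, 3295 and 1315 CPM in L/M cones over the graft and 2946, 4798 and 4185 CPM in those of control, and at 1225, 1517 and 1160.5 CPM in S cones over the graft and 1910, 3571 and 3644 CPM in those of control. ARR3 is a gene of the rule that chose all these cells, so its values by type are a description with no test.

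VMO1 UMIs were counted in the barcodes of both cone types, with the share from free RNA not tested here by type. The level was 1512, 26.6 and 39.9 CPM in L/M cones over the graft and 1.95, 0.610 and 0.341 CPM in those of control. S cones over the graft held 791, 63.1 and 118 CPM, against 3.25, 0 and 0 CPM in control. The interferon list summed to 2832, 324 and 396 CPM in L/M cones over the graft and 334, 185 and 281 CPM in those of control. In S cones it was 1396, 972 and 717 CPM over the graft and 485, 495 and 403 CPM in control. The S cone sums rest on 20, 26 and 30 cells over the graft and 101, 27 and 42 in control.

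Rods of the same punches were the nearest cell class for comparison, taken as 26191 barcodes by a rule of the same form. Rod and cone sums come from the same libraries, so their changes are set side by side and are not independent. In rods edgeR called 3240 of 14283 genes (22.7%), and rod sums rest on 2482 to 5750 barcodes a library. Of the interferon list 26 of 29 tested rose in rods, with a median log2 change of 4.11, and of the class I list 15 of 17 rose, with a median of 2.51. Of the 199 genes called in cones, 180 were tested in rods, 148 were called there and 146 of these had the same sign. VMO1 changed by 7.87 in cones and 5.98 in rods, SMOC2 by 5.52 and 3.65, AQP3 by 4.53 and 5.03, and TPH1 by 2.41 and 1.82. GUCA1C changed by 1.58 in cones and 1.69 in rods, SLC6A6 by -1.25 and -1.68, PLA2R1 by -1.59 and -2.0, and STXBP4 by -1.93 and -0.21. STXBP4 was not called in rods (edgeR adjusted p = 0.205), and the difference between cones and rods, -1.64 ± 0.41, was not called for it (edgeR adjusted p = 0.291). With a term for each library, described next, that difference was -1.57 ± 0.22 and called (edgeR adjusted p = 1.7e-04).

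The test of the difference itself, cone change minus rod change, called 0 of 14521 genes (0.0%) in edgeR, with 1256 at an unadjusted p under 0.05. With a term for each library in place of the experiment terms, edgeR called 515 (3.55%), 313 with the higher change in cones and 202 with the lower. BTBD11 moved in opposite directions. In cones it had 58.7, 79.7 and 331 CPM over the graft and 41.5, 27.5 and 74.9 CPM in control, and in rods 5.69, 0.548 and 1.13 CPM over the graft and 24.9, 0.939 and 1.83 CPM in control. Its log2 change was 1.44 ± 0.27 in cones (edgeR adjusted p = 0.0388) and -1.62 in rods (edgeR adjusted p = 0.00592). Each experiment was higher over the graft in cones and lower in rods. The difference was 3.23 ± 0.53, not called with the experiment terms (edgeR adjusted p = 0.0930).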

How the data were processed

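UMI counts per gene and barcode were deposited by the authors as filtered matrices, made with Cell Ranger 6.0.2 (LG5), 7.1.0 and 7.0.0 (RC726 over the graft and control) and 7.1.0 (RC724), per the submitters' processing notes. Not given in the sources used here are the genome build, the treatment of intronic reads and the handling of reads from human graft cells. Of 34981 gene names, 33363 matched RefSeq (UU_Cfam_GSD_1.0), which was used for names and neighbours only.

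Barcodes with at least 300 genes were kept, no doublet caller was run, and no barcode held fewer than 500 UMIs. Cones were taken by the stated rule, and rods by the same form of rule on rod genes. Counts were summed per library and cell class, 1941592 to 3939972 UMIs of cones each, and tested with edgeR 4.0.16 in R 4.3.3 (TMM, filterByExpr by group, quasi-likelihood, Benjamini-Hochberg over all genes tested), with experiment as a block. The pairs come from the same retina, and cones of a pair deviated together from their group means (correlations 0.926, 0.829 and 0.783 across genes, in the order LG5, RC726, RC724). The difference between cone and rod changes was tested as an interaction. Shares were tested by exact paired sign-flip tests. The test scripts were tested on simulated data.

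Named genes were the 12 largest rises and falls among called genes with 1 direction in 3 experiments and at least 20 CPM, up to 4 called members of each list, and a fixed set of cone, interferon and stress genes. The members, the gene lists and this rule were chosen with earlier results of these data known. Thinning used the exact expected share at 1000 UMIs. Alternatives were DESeq2 1.42.0, no filter, no block, each experiment left out, stricter and looser rules, an upper limit of 2.5 times the median UMIs, at most 20% mitochondrial UMIs and free RNA subtraction. Intervals cover counting error only. A few genes of the lists are counted but not reported here by name.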

Additional observations from a re-analysis of the deposited data

Results flagged for a closer look

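BTBD11, which overlaps 4 unnamed loci in RefSeq, moved in opposite directions in cones and rods over the graft. Its log2 change was 1.44 in cones and -1.62 in rods, each experiment going the same way within a cell class. The difference of 3.23 had an unadjusted p of 6.3e-05 and an edgeR adjusted p of 0.0930 with experiment terms, and 2.66 was called with a term for each library. In rods of RC726 and RC724 the gene stayed under 2 CPM, at 0.548 and 1.13 CPM over the graft and 0.939 and 1.83 CPM in control. Of the genes called in cones, LOC111091276, at -1.24, was the other gene whose CPM moved in opposite directions in the 3 experiments. It was not tested in rods, so it is not among the genes called with opposite signs in cones and rods.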

How the results depend on the processing

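The 199 genes called in cones became 0 without the replicate block (187 at an unadjusted p under 0.05) and 847 with no filter on low counts, and between 49 and 514 when 1 experiment was left out. They numbered 501 without cones over 2.5 times the median UMIs and, by alternatives chosen after seeing the data, 567 after free RNA subtraction without LG5, 356 with cone genes at least 0.15% of UMIs, 413 with cones chosen by 5 genes outside the rule and 52 with L/M cones only. DESeq2 called 228, with 156 in common. Free RNA subtraction with LG5 could not be fitted. The 0 genes with a cone change unlike the rod change became 515 with a term per library, 248 with no filter, 9 with cone genes at least 0.6% of UMIs, 7 with cone genes above rod genes, and 0 to 1 when 1 experiment was left out. The cause was not tested. Leaving out 1 experiment gave -0.66 to -0.18 for the cone share (log2), 11.6 to 33.2 points for the interferon share and -6.72 to -0.69 points for S cones. OPN1LW, -0.11 in the test, ran from -0.39 to 0.086 when 1 experiment was left out and was 0.10 after free RNA subtraction, 0.015 with cones chosen by other genes and 0.13 in L/M cones. Without LG5, 28 of the named genes lost their call, without the block 39, and with DESeq2 5. The LG5 cones, with medians of 1409 UMIs over the graft and 2073 UMIs in control, limit what thinning can show.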

Other observations

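Further genes rose in cones with and without LG5 but stood no higher there than in other barcodes in at least 1 punch over the graft; they were picked after their values were seen. ARRB1, an arrestin found throughout the body, had 77.8, 15.0 and 50.9 CPM over the graft and 12.3, 3.73 and 10.2 CPM in control, with groups that did not overlap and a log2 change of 2.33 ± 0.20 (edgeR adjusted p = 0.00121). Other barcodes held 20.8, 25.1 and 31.2 CPM over the graft and 21.7, 24.8 and 18.8 CPM in control, while rods alone changed by 2.36 on the log2 scale (edgeR adjusted p = 8.4e-04). ACOX2, a peroxisomal oxidase of bile acid synthesis, had 45.8, 20.3 and 49.1 CPM over the graft and 2.06, 5.06 and 6.24 CPM in control, again without overlap, and a log2 change of 2.96 ± 0.34 (edgeR adjusted p = 0.00601). In other barcodes ACOX2 stood at 11.1, 20.9 and 22.2 CPM over the graft and 6.44, 21.3 and 25.2 CPM in control, and rods alone changed by 1.08 (edgeR adjusted p = 0.0284).

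SLC1A4, a transporter of neutral amino acids, had 87.0, 31.0 and 66.8 CPM over the graft and 23.7, 5.06 and 20.7 CPM in control, which gave a log2 change of 1.94 ± 0.19 (edgeR adjusted p = 0.00302). FABP5, a carrier of fatty acids, had 1047, 112 and 162 CPM over the graft and 203, 52.5 and 74.0 CPM in control, higher over the graft in each experiment with overlapping groups and a log2 change of 1.52 ± 0.23 (edgeR adjusted p = 0.0183). CTNNA2, the neuronal alpha catenin, had 2.58, 73.4 and 176 CPM over the graft and 1.72, 31.7 and 61.8 CPM in control, with a log2 change of 1.31 ± 0.17 (edgeR adjusted p = 0.00817). Its log2 change in rods was -0.24 (edgeR adjusted p = 0.473), and the difference between the classes, 1.61 ± 0.26, was not called with experiment terms (edgeR adjusted p = 0.0930) but was with a term for each library, at 1.65 ± 0.23 (edgeR adjusted p = 1.3e-04). CTNNA2 overlaps 7 other loci in RefSeq, so some of its UMIs may be theirs. The zinc finger gene ZMAT1 had 396, 76.1 and 195 CPM over the graft and 46.3, 20.5 and 20.1 CPM in control, and the log2 change was 2.74 ± 0.24 (edgeR adjusted p = 0.00166), while other barcodes held 246, 99.4 and 170 CPM over the graft and 52.9, 34.7 and 33.8 CPM in control.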
